A study of Mus musculus with 12 samples.

Results

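The genes described here are known as transcriptional targets of the RAS to ERK kinase cascade, and most of them encode proteins that limit it. They are 4 dual-specificity phosphatases (Dusp1, Dusp4, Dusp5 and Dusp6), 3 inhibitors of the Sprouty and Spred families (Spry2, Spry4 and Spred1), the ETS transcription factors Etv4 and Etv5, and the immediate early gene Ier3. All probes annotated to these 10 symbols were taken, which gave 16 of the 45281 probes on the array and 10 of its 19057 named genes. Of the 10 genes, 8 were detected on at least 2 of the 12 arrays and were tested. Etv4 and Spry2, with 1 probe each, were detected on 1 array each and were not tested. The 10 genes were named with earlier results from the same arrays known.

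Growth factor receptors load RAS with GTP, RAS recruits RAF kinases, and RAF, MEK and ERK then phosphorylate each other in turn. ERK in the nucleus activates transcription factors that induce immediate early genes within minutes, and a later group of its targets switches the cascade off again. The phosphatases remove phosphate from MAP kinases, and the Sprouty and Spred proteins act further up, between the receptor and RAF. In melanocytes and melanoma the same cascade carries signals from KIT, MET and endothelin receptors, and the level of its feedback genes is commonly read as an output of ERK activity.

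B16 is an established mouse melanoma line, grown here in DMEM with 10% fetal calf serum. Per the labels, cells were seeded at 100 per cm2 and taken on days 4, 8 and 12, all called pigmented. On day 12 they were plated again at 10000 per cm2 and taken on days 16 and 20, which, like day 0, were called depigmented. Each day had 2 arrays, 1 from set 1 and 1 from set 2, the design text describing the sets as successive cycles. All samples were of the same line, with no engineered allele and no added agent named, so pigmentation, time in culture and plating density cannot be told apart. A further density label disagreed with that protocol, marking day 8 as 10000 and day 16 as 100 cells per cm2 on both arrays, for example. By that label the arrays of day 0 and of day 12 also differed, with 10000 for set 1 and 100 for set 2. Beyond the word cycle nothing said that the arrays of a day were separate cultures, so the p-values cover spread among these arrays only, and that spread may be technical.

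Each array detected between 18508 and 19780 probes, or 40.9% to 43.7% of them, at a mean raw signal between 269.9 and 440.8. All 7 melanocyte markers examined were detected on all 12 arrays. Among markers of other cells, Col1a2, Col3a1, Lum and Dcn (fibroblasts), Ptprc, Cd3e and Csf1r (leukocytes), Krt5, Krt10 and Krt14 (keratinocytes) and Cdh5 and Kdr (endothelium) were detected on none. Others of the same lists were detected on some arrays, Lyz2 on 10, Fcer1g on 9, Pdgfra on 8, Pdgfrb and Vwf on 7, Col1a1 and Krt1 on 6 and Pecam1 on 1. Arrays of days 4 and 8 correlated at r = 0.9963 to 0.9967 across probes, as closely as arrays of the same day (0.9953 to 0.9965), whereas other pairs of days gave 0.880 to 0.975. On day 8 against day 4, 0 of 11470 genes passed limma's test at an adjusted p of 0.05, while 307 had an unadjusted p below it. Of the genes described here, 0 passed (background 0%), 0 had an unadjusted p under 0.05, and the largest difference was 0.17 ± 0.19 (SE) for Etv5. Days 4 and 8 thus gave no detectable difference in these genes, and they are described side by side.

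The stretch upstream of the transcription start is shown for Dusp1, Dusp5 and Ier3. Of the 4 tested genes whose level was highest on day 0, these are the ones with a promoter in the table used, Spry4 being the other. They are shown since 2 of these promoters hold letters read by factors that act early after a growth stimulus. Sequences are RefSeq's for build GRCm38.p6, the 250 bases before the start on the gene's own strand. They lie at chr17:26508473-26508722 (minus strand, Dusp1), chr19:53528895-53529144 (plus strand, Dusp5) and chr17:35821463-35821712 (plus strand, Ier3). Capitals mark the cyclic AMP response element TGACGTCA and its core TGACG, on either strand, and the serum response CArG box.
Dusp1: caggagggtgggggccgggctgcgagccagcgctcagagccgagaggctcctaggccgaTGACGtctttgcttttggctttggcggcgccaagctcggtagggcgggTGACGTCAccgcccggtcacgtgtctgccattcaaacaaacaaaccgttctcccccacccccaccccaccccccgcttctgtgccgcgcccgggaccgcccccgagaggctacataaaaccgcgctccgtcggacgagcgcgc
Dusp5: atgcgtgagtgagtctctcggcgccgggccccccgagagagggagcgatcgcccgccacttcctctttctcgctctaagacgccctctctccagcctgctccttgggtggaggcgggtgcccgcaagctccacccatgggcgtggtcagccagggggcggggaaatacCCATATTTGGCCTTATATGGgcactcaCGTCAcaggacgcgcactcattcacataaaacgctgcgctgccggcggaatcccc
Ier3: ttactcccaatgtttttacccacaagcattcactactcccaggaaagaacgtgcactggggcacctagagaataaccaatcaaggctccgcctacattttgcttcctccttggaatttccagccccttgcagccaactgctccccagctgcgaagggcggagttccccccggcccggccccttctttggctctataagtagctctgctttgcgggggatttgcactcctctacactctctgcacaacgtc

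Dusp1 held 1 full response element, which is found in 1.79% of the 32851 mouse promoters in the table. Its 3 cores include 2 that lie within the full element, 1 on each strand. In Dusp5 there were 2 CArG boxes end to end, a motif found in 1.63% of promoters, and 1 core on the opposite strand, a motif found in 20.8%. Ier3 held none of these letters. The window searched ran from 250 bases before the start to 50 after it. AP-1 (TGANTCA, 7.81% of promoters), ETS (CCGGAAG, 8.86%) and TATAAA (13.6%) matched none of the 8 promoters that the table gave for 7 of the 10 genes. Promoters of Dusp6, Spry2, Spred1 and Etv5 held none of the motifs either. These matches describe letters in a window and were not tested for use.

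Levels below are log2 values after background correction and quantile normalization, for the brightest detected probe of each gene unless stated, with set 1 before set 2. Changes are differences of log2 level ± SE from a model over all 12 arrays, and p-values were adjusted over 11470 genes. In bulk RNA of this kind, fewer cells of a type and less RNA per cell cannot be told apart.

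Dusp1 encodes a nuclear phosphatase of p38, JNK and ERK and is itself an immediate early gene. Its levels were 11.80 and 11.86 on day 0, 9.97 and 9.96 on day 4, 9.91 and 9.94 on day 8, 9.39 and 9.24 on day 12, 9.80 and 9.75 on day 16, and 10.65 and 10.81 on day 20. Both day 0 arrays were above all others, both day 12 arrays below all others, and the day 20 arrays were second. Dusp1 was 3.66-fold lower on day 4 than on day 0 (log2 change −1.87 ± 0.08, adjusted p = 9.58e-15) and 5.72-fold lower on day 12 than on day 0 (−2.52 ± 0.08, adjusted p = 2.58e-16). Day 20 exceeded day 16 by 0.96 ± 0.08 (adjusted p = 4.32e-10) and was lower than day 0 (−1.10 ± 0.08). Days 4, 8 and 16 did not pass the test between neighbours in the order of levels.

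Dusp5 encodes a nuclear phosphatase specific for ERK. It had levels of 7.77 and 7.69 on day 0, 4.92 and 4.84 on day 4, 4.80 and 5.06 on day 8, 4.93 and 5.29 on day 12, 5.11 and 4.84 on day 16, and 6.97 and 6.87 on day 20. The 4 arrays of days 0 and 20 stood clear of the other 8. On days 4, 8 and 16 the probe was detected on 1 array of 2, so those levels sit at the edge of detection. The changes from day 0 were −2.84 ± 0.16, −2.80 ± 0.16 and −2.76 ± 0.16 on these days. Day 20 exceeded day 16 by 1.95 ± 0.16 (3.86-fold, adjusted p = 8.49e-10) and lay below day 0 (−0.81 ± 0.16, adjusted p = 0.000171). Between days 4, 8, 12 and 16 no neighbouring levels differed past the threshold.

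Ier3 encodes a small stress-induced protein that can prolong ERK phosphorylation by acting on a phosphatase of ERK. Levels of 12.85 and 12.62 were measured on day 0, 10.77 and 10.71 on day 4, 10.70 and 10.75 on day 8, 11.81 and 11.76 on day 12, 12.10 and 12.06 on day 16, and 11.02 and 10.91 on day 20. Like Dusp1 and Dusp5 it was highest on day 0, but its lowest arrays were those of days 4 and 8, and day 20 came next. Ier3 on day 8 was 4.03-fold lower than on day 0 (−2.01 ± 0.08). It was higher on day 12 than on day 8 by 1.06 ± 0.08 (adjusted p = 2.2e-10) and lower on day 20 than on day 16 (−1.11 ± 0.08, adjusted p = 3.04e-11). Neighbours in its order of days, from 0 through 16, 12 and 20 to 4, all differed past the threshold, and days 4 and 8 did not. Under median centring days 16 and 12 no longer did (0.29, adjusted p = 0.169), and day 20 lay below day 8 (−0.33, adjusted p = 0.0547), so the place of day 20 in this order depends on the scaling.

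Dusp4, a nuclear phosphatase of ERK and JNK, ran the other way at the start. Its brightest probe gave 9.61 and 9.70 on day 0, 11.40 and 11.51 on day 4, 11.49 and 11.39 on day 8, 10.89 and 10.75 on day 12, 10.30 and 10.21 on day 16, and 10.69 and 10.50 on day 20. Day 0 was lowest and days 4 and 8 highest, with no overlap with the rest. The gene was 3.49-fold higher on day 4 than on day 0 (1.80 ± 0.08, adjusted p = 4.05e-14). By this probe it remained above day 0 by 1.16 ± 0.08 on day 12, 0.60 ± 0.08 on day 16 and 0.94 ± 0.08 on day 20. Its other probes, numbered from the brightest, disagreed on days 16 and 20. On day 16 probe 2 gave 0.42 and probes 3 (0.18) and 4 (0.26) did not pass, and on day 20 probes 2 and 3 gave 2.12 and 1.89.

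**Figure D1:**
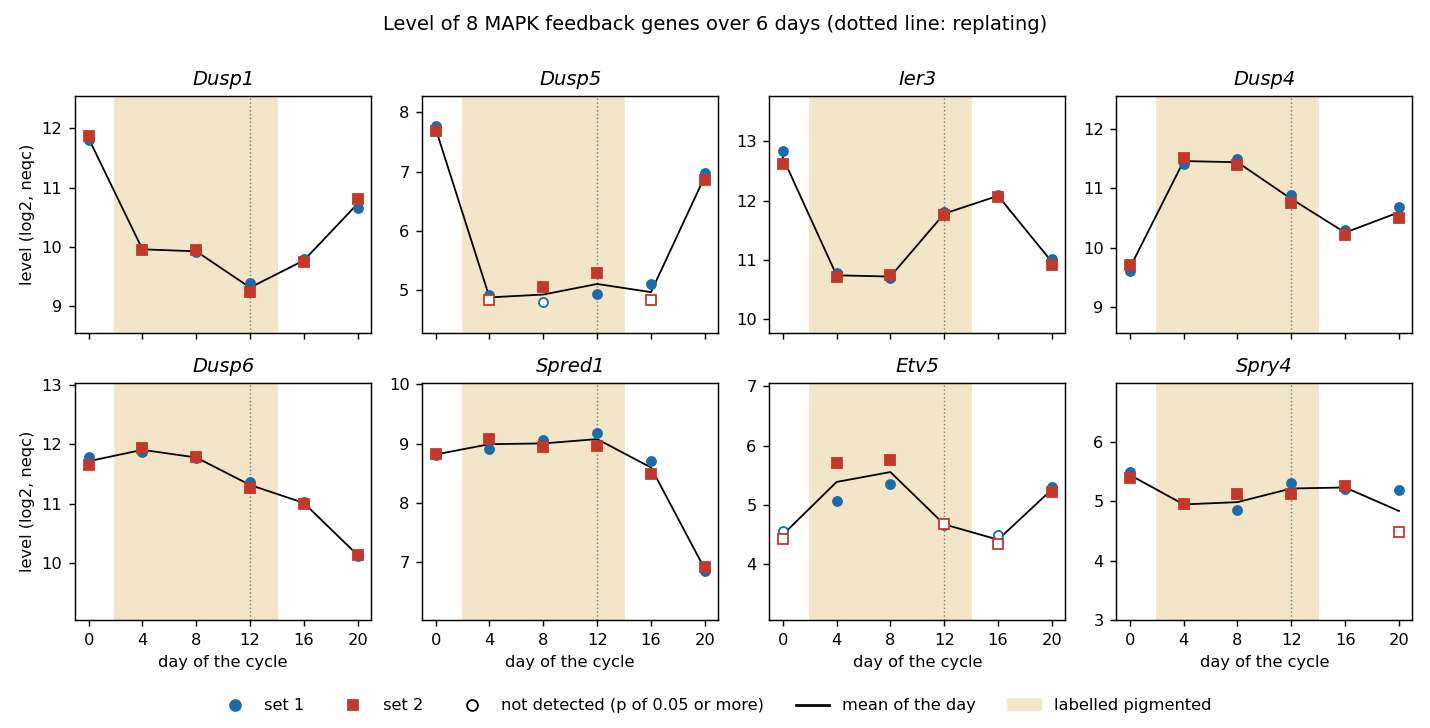
Level (log2, after background correction and quantile normalization) of the 8 tested genes against day of the cycle, with circles for set 1, squares for set 2, open symbols for arrays that did not detect the probe, a line through the day means, shading on the days called pigmented and a dotted line at replating on day 12. Every panel spans the same log2 range. Dusp1, Dusp5 and Ier3 start at their highest level on day 0, Dusp4 starts at its lowest, and Spred1 and Dusp6 are lowest on day 20.

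Dusp6, a cytoplasmic phosphatase specific for ERK, declined late by its brightest probe. That probe measured 11.78 and 11.64 on day 0, 11.87 and 11.94 on day 4, 11.76 and 11.79 on day 8, 11.37 and 11.26 on day 12, 11.03 and 10.99 on day 16, and 10.12 and 10.14 on day 20. Arrays of days 0, 4 and 8 overlapped in part, and each later day was below the one before it. Against day 0 the change was −0.40 ± 0.07 on day 12, −0.70 ± 0.07 on day 16 and −1.59 ± 0.07 on day 20 (adjusted p = 2.41e-14). The call on day 16 was lost with the mean of its 3 probes (−0.16, adjusted p = 0.0845), and that on day 12 turned to 0.25 (adjusted p = 0.0087). Day 8 did not pass by the brightest probe (0.06) but did by that mean (0.91, adjusted p = 4.15e-08). The day 4 change of 0.19 ± 0.07 (adjusted p = 0.0225) did not pass without set 2 of day 0 (0.12, adjusted p = 0.245) or set 2 of day 4 (0.16, adjusted p = 0.138).

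Spred1 encodes a membrane protein that brings neurofibromin to RAS. It stayed near the same level until replating, with 8.80 and 8.83 on day 0, 8.91 and 9.07 on day 4, 9.06 and 8.95 on day 8, and 9.19 and 8.97 on day 12. After replating it had 8.70 and 8.49 on day 16, which passed as lower than day 12. The day 20 arrays, at 6.85 and 6.92, were far below the other 10. Day 20 was 3.28-fold lower than day 16 (−1.71 ± 0.10, adjusted p = 3.32e-12) and 3.82-fold lower than day 0 (−1.93 ± 0.10, adjusted p = 4.08e-13). A change of 0.26 ± 0.10 on day 12 against day 0 (adjusted p = 0.039) was not called without either day 0 array (0.25 without set 1 and 0.27 without set 2) or without set 1 of day 12 (0.15).

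Spry4, which inhibits signalling between receptor and RAF, was close to the detection limit. It had 5.50 and 5.39 on day 0, 4.95 and 4.95 on day 4, 4.85 and 5.12 on day 8, 5.31 and 5.12 on day 12, 5.20 and 5.26 on day 16, and 5.19 and 4.48 on day 20, with set 2 of day 20 not detected. Its gap of 0.70 between the day 20 arrays exceeded the span of 0.61 between its day means. The changes of −0.50 ± 0.19 on day 4 (adjusted p = 0.0289), −0.46 ± 0.19 on day 8 (adjusted p = 0.043) and −0.61 ± 0.19 on day 20 (adjusted p = 0.0081) against day 0 each rested on single arrays. The day 4 call was lost without any 1 of its 4 arrays (−0.44 to −0.55), the day 8 call without either day 0 array or set 1 of day 8 (−0.33 to −0.51), and the day 20 call without set 1 of day 0 (−0.55) or set 2 of day 20 (−0.26). Over the 6 days Spry4 did not pass (adjusted p = 0.0546), while a model that blocked on set called it (adjusted p = 0.0427). Spry2, its relative, lay between 4.39 and 4.90 on all arrays and was detected only on set 1 of day 20.

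Etv5, an ETS factor of the PEA3 family, was detected on the 6 arrays of days 4, 8 and 20 and on none of days 0, 12 and 16. Its brighter probe gave 5.06 and 5.71 on day 4, 5.35 and 5.76 on day 8, and 5.30 and 5.23 on day 20, against 4.57 and 4.43 on day 0, 4.66 and 4.68 on day 12, and 4.49 and 4.35 on day 16. Because the lower days were not well above background, each difference is a bound, set against the lowest detected signal of an array. The probe passed the filter of 2 detected arrays only through days 4, 8 and 20. Its p-values against days 0, 12 and 16 are thus not separate support for a difference. Etv5 was at least 1.42-fold higher on day 4 than on day 0 (adjusted p = 0.000408), at least 1.60-fold higher on day 8 than on day 0 (adjusted p = 6.4e-05) and at least 1.30-fold higher on day 20 than on day 0 (adjusted p = 0.00151). It was at least 1.66-fold lower on day 12 than on day 8 and at least 1.34-fold higher on day 20 than on day 16. In the authors' own scaled values the day 4 and day 8 changes against day 0 were 0.21 and 0.30 and did not pass (adjusted p = 0.189 and 0.0673), nor did day 12 against day 8 (−0.32, adjusted p = 0.0583) or day 16 against day 4 (−0.23, adjusted p = 0.188). Etv4, the other PEA3 factor here, lay between 4.26 and 4.91 and was detected only on set 1 of day 8.

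The question of how the start of the cycle compares with each later day was read from 5 comparisons with day 0. On day 4, 7 of the 8 tested genes passed, 3 higher (Dusp4, Dusp6 and Etv5) and 4 lower (Dusp1, Dusp5, Spry4 and Ier3). The background was 63.5% of all 11470 genes, 29.5% higher and 34% lower. On day 8 the count was 6, with 2 higher and 4 lower (background 63.1%, or 29.3% higher and 33.9% lower). Dusp6 was not among them by its brightest probe, but was higher by the mean of its probes (0.91). Day 12 gave 6, with 2 higher and 4 lower (52.3%, or 22.8% higher and 29.5% lower). Day 16 gave 5, with Dusp4 higher and Dusp1, Dusp5, Dusp6 and Ier3 lower (47.6%, or 20.9% higher and 26.6% lower). On day 20 all 8 passed, with Dusp4 and Etv5 higher and 6 lower (68%, or 29.3% higher and 38.7% lower). Their median log2 change on day 20 was −0.95, against −0.11 for all tested genes, and on day 4 it was −0.16, against −0.04. The orders of days given above also rest on day 12 against day 4 (background 53.1%), day 16 against day 8 (47%), day 20 against day 4 (68.5%) and day 20 against day 12 (63.4%). The 5 comparisons with day 0 share their day 0 arrays and so are not independent of each other. Etv5 was tested only because days 4, 8 and 20 detected it, so its calls on those days add no separate support. Over all 6 days 7 of 8 passed, Spry4 excepted, beside 84.7% of genes.

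Median centring in place of quantile normalization moved the median of all genes on day 20 against day 0 by −0.18, and the share of higher genes among those called was 27.7% under it, against 43.1%. All 8 genes passed with the same direction under both.

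**Figure D2:**
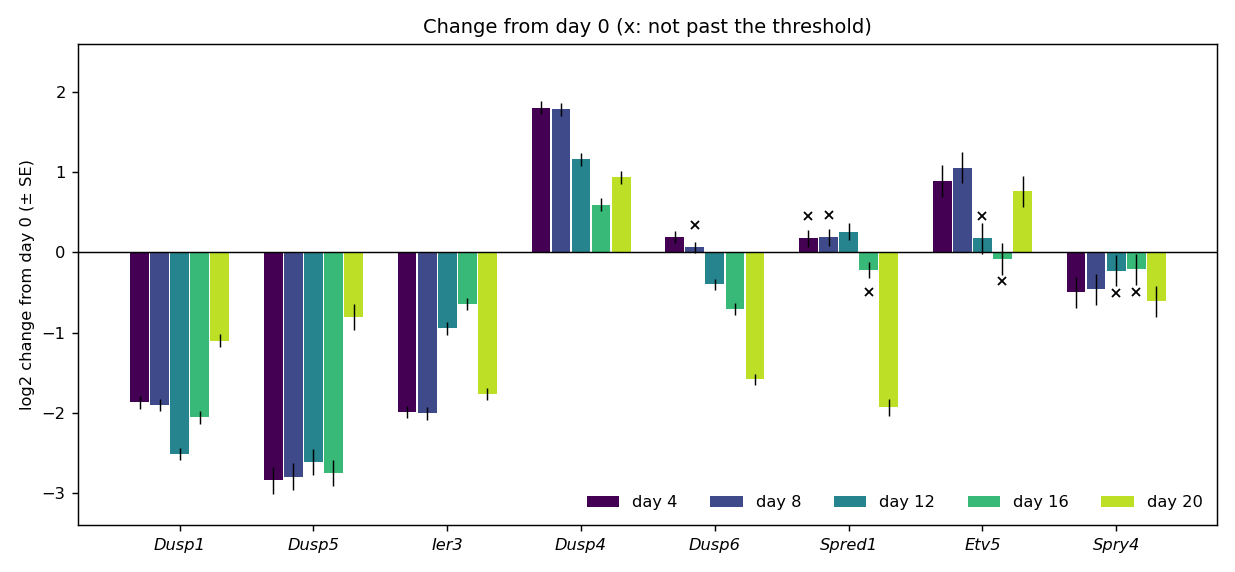
Log2 change from day 0 (bars) with its SE for each tested gene on days 4, 8, 12, 16 and 20, low to high from left to right, with a cross on changes that did not pass an adjusted p of 0.05. Dusp1, Dusp5 and Ier3 are below 0 on all 5 days and Dusp4 above 0 on all 5, while Dusp6 and Spred1 reach −1.59 and −1.93 on day 20.

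Consecutive harvests showed where these courses turned. From the comparison of day 12 with day 8, 5 of 8 genes passed, Ier3 higher and Dusp1, Dusp4, Dusp6 and Etv5 lower (background 53.4%, or 27.2% higher and 26.2% lower). Etv5 was detected on no array of day 12 or day 16 and was tested only through days that detected it. Its calls between consecutive harvests thus add no separate support to the counts. Dusp1 changed by −0.61 ± 0.08 and Dusp4 by −0.62 ± 0.08. On day 16 against day 12, across the replating, 5 passed (40.4%, or 20.7% higher and 19.7% lower). Dusp1 was higher by 0.46 ± 0.08 and Ier3 by 0.30 ± 0.08, and Dusp4 (−0.57 ± 0.08), Dusp6 (−0.30 ± 0.07) and Spred1 (−0.48 ± 0.10) were lower. With median centring this count was 2, since Dusp1 (0.42, adjusted p = 0.051), Dusp6 (−0.30, adjusted p = 0.156) and Ier3 (0.29, adjusted p = 0.169) no longer passed. On day 20 against day 16, both labelled depigmented, 7 passed (65%, or 29.9% higher and 35% lower), with Dusp1, Dusp4, Dusp5 and Etv5 higher and Dusp6, Spred1 and Ier3 lower. The difference of 0.34 ± 0.08 for Dusp4 was 0.10 (adjusted p = 0.628) under median centring. Among called genes the higher share under that centring was 38.2% for day 12 against day 8 (main value 51%) and 31.9% for day 20 against day 16 (46.1%), with median shifts of −0.09 and −0.14.

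Equal times after plating allow the dense and the sparse culture, named by the protocol, to be set side by side. By the density label the days of each pair do not differ, with 100 cells per cm2 on days 4 and 16 and 10000 on days 8 and 20. At 4 days, day 16 against day 4, Ier3 was higher by 1.34 ± 0.08 and Dusp4 (−1.21 ± 0.08), Dusp6 (−0.90 ± 0.07), Spred1 (−0.39 ± 0.10) and Etv5 (at least 1.46-fold, not called in the authors' scaled values) were lower, 5 of 8 in all (background 47%, or 24.2% higher and 22.8% lower). Etv5 was tested only through days that detected it, day 16 not among them, so its call adds no separate support. Dusp1 differed by −0.19 ± 0.08 (adjusted p = 0.0525) and passed when set was a block (adjusted p = 0.0455), with median centring (−0.45, adjusted p = 0.0231), with probes detected on all arrays (adjusted p = 0.0469) and with the mean of probes (adjusted p = 0.047). Spred1 was not called without set 2 of day 4 (−0.31) or set 2 of day 16 (−0.29). At 8 days, day 20 against day 8, 6 of 8 passed (68.3%, or 32.9% higher and 35.4% lower). Dusp5 was 3.97-fold higher (1.99 ± 0.16) and Dusp1 1.75-fold higher (0.81 ± 0.08), while Spred1 was 4.35-fold lower (−2.12 ± 0.10), Dusp6 3.13-fold lower (−1.65 ± 0.07) and Dusp4 lower by its brightest probe (−0.84 ± 0.08). Ier3 was higher by 0.25 ± 0.08 (adjusted p = 0.00699), a call lost without set 1 of day 20 (0.19) and turned to −0.33 (adjusted p = 0.0547) by median centring. Dusp1 was 0.27 higher (adjusted p = 0.15) under that centring, which moved the median of all genes by −0.11 at 4 days and −0.24 at 8 days. The higher share of calls was then 34.8% at 4 days (main value 51.4%) and 29.1% at 8 days (48.2%).

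The step between 4 and 8 days after plating was then compared between the cultures, a test added after the data had been seen. In the dense culture (day 20 minus day 16) the step was 0.96 for Dusp1 and 1.95 for Dusp5, against −0.03 and 0.05 in the sparse culture (day 8 minus day 4). It was −1.71 for Spred1, −1.11 for Ier3 and −0.88 for Dusp6 in the dense culture, against 0.01, −0.02 and −0.13 in the sparse one. With no gene past the threshold on day 8 against day 4, a difference between the steps largely repeats day 20 against day 16. The same 7 genes passed there in the same directions, so the calls below are not separate support. The difference between the steps passed for 7 of 8 genes (background 56%, or 25.6% more positive and 30.3% more negative). It was more positive after dense plating for 4 and more negative for 3, with Spry4 not past the threshold (−0.43 ± 0.27, adjusted p = 0.187). Median centring left 5 of these calls, since Dusp4 (0.13, adjusted p = 0.701) and Etv5 (0.62, adjusted p = 0.0693) no longer passed. It moved the median of all genes by −0.16 and the higher share of calls to 29.4%, against 45.8%. The Dusp4 values here are those of its brightest probe. Probes 2, 3 and 4 of Dusp4 gave larger differences, 1.65 ± 0.11, 1.70 ± 0.15 and 1.33 ± 0.27. Etv5 was detected on no day 16 array, so its difference of steps has no measured size and nothing is read from its call, which was also lost with an offset of 50 (0.30), with no filter (adjusted p = 0.0689), with the mean of probes (0.51), in the authors' scaled values (0.26), and without set 2 of day 4 (0.36), set 1 of day 8 (0.47) or any 1 array of day 16 or day 20 (0.61 to 0.75), and the Dusp4 call without set 2 of day 4 (0.31) or set 1 of day 20 (0.27).

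**Figure D3:**
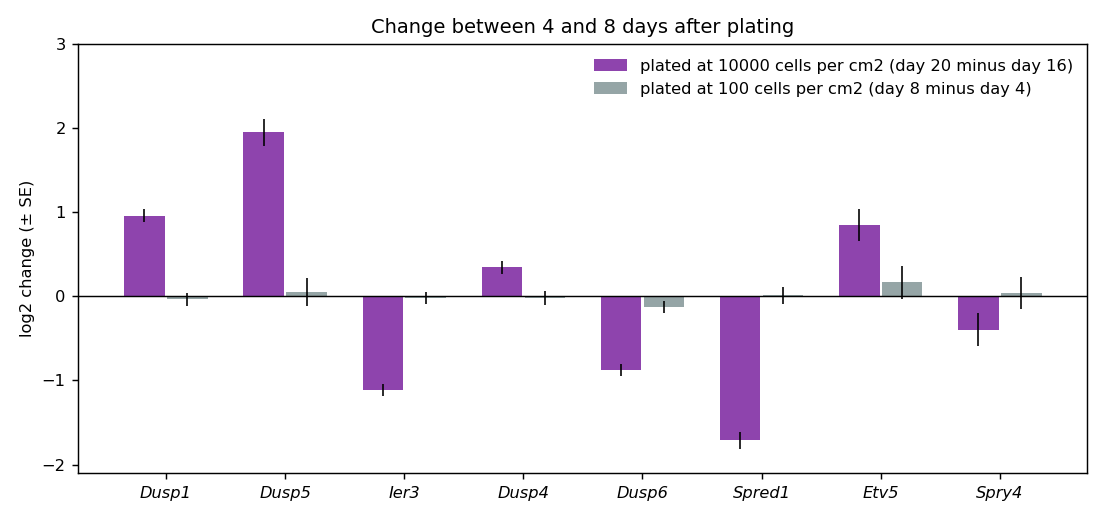
Log2 change (± SE) between 4 and 8 days after plating for each tested gene, with purple bars for cells plated at 10000 per cm2 (day 20 minus day 16) and grey bars for cells plated at 100 per cm2 (day 8 minus day 4). These densities are those of the protocol, and the density label does not separate the cultures. Grey bars stay between −0.13 and 0.17, while purple bars run from −1.71 (Spred1) to 1.95 (Dusp5). The purple bar of Etv5 starts from a day on which it was not detected.

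The 6 arrays labelled pigmented were compared with the 6 labelled depigmented in a model whose spread included that between days. Both arrays of a day carry the same label, yet the model counted them as separate, with no term for day. Arrays of a day were closely alike, so the p-values below overstate the evidence for a difference by label. Dusp4 had a lowest, median and highest level of 10.75, 11.39 and 11.51 on pigmented arrays, against 9.61, 10.25 and 10.69 on depigmented arrays. These are values of its brightest probe, by which the groups did not overlap and Dusp4 was higher in pigmented cells by 1.07 ± 0.21 (adjusted p = 0.00524). Its probes 2 (0.87, adjusted p = 0.126), 3 (0.75, adjusted p = 0.185) and 4 (0.66, adjusted p = 0.195) did not pass, and probe 2 was higher on both day 20 arrays than on any pigmented array. Dusp5 had 4.80, 4.93 and 5.29 on pigmented arrays, against 4.84, 6.92 and 7.77 on depigmented arrays. Its groups overlapped through day 16, and its change of −1.57 ± 0.46 (adjusted p = 0.0363) was lost without any 1 array of days 0, 4, 8 or 20 (−1.32 to −1.58) and when set was a block (adjusted p = 0.0523). These were the 2 of 8 genes that passed, beside 16.9% of all genes, 7.73% higher and 9.16% lower. Dusp1 differed by −1.04 ± 0.36 (adjusted p = 0.0599) and was called without set 1 (−1.24) or set 2 (−1.25) of day 16. Spred1 (0.92 ± 0.35), Dusp6 (0.71 ± 0.28), Ier3 (−0.85), Etv5 (0.48 ± 0.24) and Spry4 (−0.12 ± 0.16) did not pass. Dusp6 did pass by the mean of its probes (1.04, adjusted p = 0.0073). With median centring the median of all genes moved by 0.11 and the higher share of calls was 66.2%, against 45.8%.

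Genes with several probes showed how far one probe can stand for a gene. Dusp4 had 4 detected probes, numbered from the brightest. All 4 rose on day 4 against day 0, by 1.80, 1.81 and 1.66 for probes 1 to 3 and by at least 2.23-fold for probe 4, which day 0 did not detect (background 58% of 22978 probes). They separated on day 20. Probe 2 read 11.18 and 11.09 on day 20, against 10.84 and 10.90 on day 8, and probe 3 read 8.70 and 8.71, against 8.49 and 8.49. Probe 1 alone was lower on day 20 than on day 8 (−0.84), while probe 2 was higher (0.26, adjusted p = 0.0037) and probes 3 (0.22) and 4 (0.00) did not pass (background 64.9%). On day 20 against day 16, probes 1 to 4 were higher by 0.34, 1.70, 1.71 and 1.29, beside 61% of probes called. Probe 1 correlated with the other 3 at 0.81 to 0.83 over the 12 arrays, and those 3 with each other at 0.92 to 0.98. A mean over probes put day 20 against day 8 at −0.09 (adjusted p = 0.345) and pigmented against depigmented at 0.84 (adjusted p = 0.0808).

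Dusp6 had 3 detected probes, which were all lower on day 20 than on day 8 and differed against day 0. Day 20 against day 8 gave changes of −1.65, −1.89 and −1.86. On day 4 against day 0 probe 1 changed by 0.19, probe 2 by 0.58, and probe 3 was at least 3.75-fold higher. On day 8 against day 0 probe 1 did not pass (0.06), probe 2 was higher (0.61) and probe 3 at least 4.09-fold higher (background 58.1%). Probe 2 read 9.86 and 10.24 on day 4, against 9.42 and 9.53 on day 0, and probe 3 read 6.89 and 6.68 on day 4, against 4.85 and 4.85 on day 0, where it was not detected. On day 12 against day 0 the brightest probe was lower (−0.40), probe 2 did not pass (0.01) and probe 3 was at least 2.15-fold higher (background 47.4%). On day 16 against day 0, probes 1 and 2 were lower (−0.70 and −0.50) and probe 3 at least 1.63-fold higher (adjusted p = 0.000767, background 43.5%). By day 20 probes 1 and 2 were lower than on day 0 (−1.59 and −1.28), and probe 3 did not pass (0.20, adjusted p = 0.287, background 64.3%). Probe 2 (0.99, adjusted p = 0.022) and probe 3 (1.40, adjusted p = 0.0024) passed between pigmented and depigmented arrays where probe 1 did not, beside 13.3% of probes. Which transcript end or isoform each probe reads was not examined. Of the 2 probes of Etv5, the dimmer was detected on 4 arrays, all of days 4, 8 and 20. Against day 0 it was higher on day 8 (at least 1.31-fold, adjusted p = 0.0297, background 58.1%). It did not pass on day 4 (adjusted p = 0.107) or day 20 (adjusted p = 0.0856). Since it entered the fit only through those days, its call is not separate support for a difference. Of the 14 probes in the fit, 13 changed over the 6 days, beside 81.3% of probes.

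**Figure D4:**
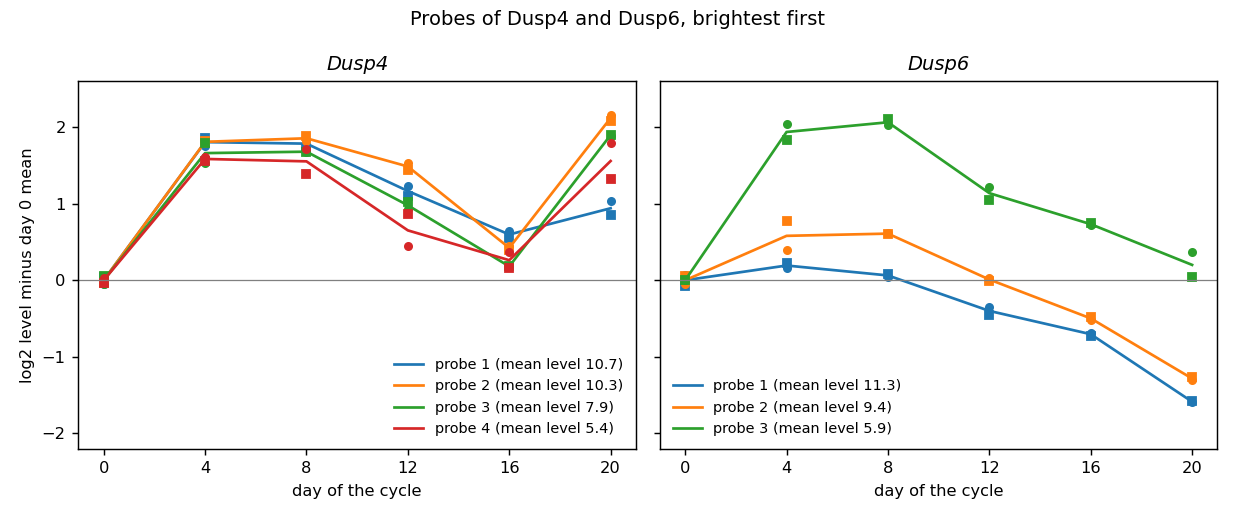
Log2 level minus the probe's own day 0 mean against day of the cycle for the 4 probes of Dusp4 and the 3 probes of Dusp6, numbered from the brightest, with circles for set 1, squares for set 2 and lines through day means. Probe 1 of Dusp4 ends at 0.94 on day 20 and probe 2 at 2.12. The 3 probes of Dusp6 are set apart on days 4 and 8 at 0.06 to 2.06. Day 0 lies below detection for Dusp4 probe 4 and Dusp6 probe 3.

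Over the 12 arrays, which share days and sets, the closest pairs of these genes are given as a description. Dusp1 followed Dusp5 (Pearson r = 0.92), Dusp6 followed Spred1 (0.90), and Dusp4 ran with Etv5 (0.78) and against Ier3 (−0.90). Etv5 ran against Ier3 (−0.88), Spry4 with Ier3 (0.77) and Dusp4 against Dusp5 (−0.73). These values and the matches below use the brightest probe of each gene, which for Dusp6 correlated with its probe 3 at only 0.58. Outside these genes, the most alike of 5642 genes whose day means span at least 1 were Gfod1 (0.992) and Fos (0.985) for Dusp1, and Rabl6 (0.992) and Junb (0.991) for Dusp5. For Dusp4 they were Ggcx (0.983) and Commd8 (0.979), for Dusp6 D11Wsu47e (0.992) and Acsf3 (0.985), and for Spred1 Limch1 (0.992) and Flywch2 (0.991). For Ier3 they were Nrep (0.995) and Wipf3 (0.993). Etv5 and Spry4 had looser matches in Emp1 (0.936) and Fgfbp3 (0.935), and in Zkscan17 (0.860) and Caskin2 (0.854).

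Immediate early genes, the first transcripts induced by ERK and related kinases, were all measured. All 16 were lower on day 4 than on day 0, beside 34% of all genes, with a median of −2.69 (−2.49 with 5 undetected genes at their bound). Fosb changed by −5.51 ± 0.13, Egr1 by −4.95 ± 0.08 and Fos by −3.46 ± 0.09, and Egr3 was at least 5.87-fold lower. On day 16 all 16 were still below day 0. Between days 20 and 16, 10 rose on day 20 and 2 fell, beside 29.9% and 35% of all genes, with a median of 0.94 (0.86 with bounds), led by Fosb (4.64 ± 0.13), Atf3 (2.97 ± 0.14), Zfp36 (2.88 ± 0.11) and Egr1 (2.54 ± 0.08). The directions of Dusp1 and Dusp5 were the same as those of these 4 genes in both comparisons. Since the 4 were named for the largest changes, nothing is read from that match. Ier3 was lower in both comparisons.

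Other dual-specificity phosphatases, 9 of 10 measured, gave 3 higher and 6 lower on day 4 against day 0, beside 29.5% and 34% of all genes, with a median of −0.49 against −0.04 for all genes. The largest changes were those of Dusp10 (−1.42 ± 0.14) and Dusp16 (−0.95 ± 0.08), which act on JNK and p38, and of Dusp8 (−1.19 ± 0.11) and Dusp14 (−1.11 ± 0.15). Relative to day 16, 5 rose and 3 fell on day 20, beside 29.9% and 35% of all genes, with a median of 0.59 against −0.05, among them Dusp14 (1.77 ± 0.15), Dusp8 (1.75 ± 0.11) and Dusp18 (−1.58 ± 0.17). Dusp10 differed from day 0 by −2.14 ± 0.14 on day 12 and by −2.04 ± 0.14 on day 16.

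Of the other Sprouty, Spred, PEA3 and Ier genes, 4 of 7 were measured. On day 4 against day 0, Spred2 was higher (0.58 ± 0.21), Etv1 lower (−0.43 ± 0.12) and Ier2 at least 2.24-fold lower. On day 20 against day 0, Etv1 was lower (−1.58 ± 0.12) and Spred2 higher (0.72 ± 0.21), the opposite direction to Spred1 (−1.93 ± 0.10). Among 10 of 13 other ERK output genes, 3 rose and 3 fell on day 4 (median −0.10), a share near the 29.5% and 34% of all genes, so the list as a whole did not stand apart. Ccnd1, encoding cyclin D1 (1.80 ± 0.08), and Emp1 (1.82 ± 0.09) were higher, and Errfi1, an inhibitor of EGF receptors (−1.64 ± 0.09), and Hbegf, an EGF receptor ligand (−1.32 ± 0.19), were lower. By day 20, relative to day 16, 6 of the 10 rose and 1 fell (median 1.02), beside 29.9% and 35% of all genes, with Hbegf at 2.25 ± 0.19, Emp1 at 1.87 ± 0.09 and Plaur at 1.54 ± 0.17.

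Of the kinases, adaptors and regulators of the cascade, 12 of 20 were measured. Of these, 1 rose and 5 fell on day 4 against day 0 (median −0.21), beside 29.5% and 34% of all genes. The largest changes were those of Rasa1, a RAS GTPase activator (−0.85 ± 0.07), and Nras (0.45 ± 0.08). On day 20 against day 0, 1 rose and 5 fell, fewer than the 68% of all genes called, and the median of −0.13 was near the −0.11 of all genes. The changes that follow are thus those of single genes. Nf1, which encodes the neurofibromin that Spred1 recruits, was lower (−1.69 ± 0.20), as was the MEK gene Map2k2 (−1.26 ± 0.08), and Sos1, a RAS exchange factor, was higher (1.19 ± 0.21). Receptors and ligands, 11 of 21 measured, gave 2 higher and 7 lower on day 4 (median −1.53, or −1.48 with bounds), beside 29.5% and 34% of all genes. Met was at least 11.7-fold higher on day 4 than on day 0, and Igf1r (−2.66 ± 0.10) and Pdgfra (at least 3.31-fold) were lower. On day 20 Kit lay below day 0 (−2.07 ± 0.13) and Igf1r did too (−2.41 ± 0.10).

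Summed melanocyte markers were lowest on day 20, as were Spred1 and the brightest probe of Dusp6. On other days the courses differed. The markers were above day 0 on day 4, where Spred1 did not pass, and on day 16, where Dusp6 lay below day 0 (−0.70). The summed level, on a linear scale after background correction, was 34435 and 38930 on day 0, 76770 and 71821 on day 4, and 73314 and 74089 on day 8. It was 54815 and 56619 on day 12, 51108 and 51940 on day 16, and 14009 and 13928 on day 20. Summed fibroblast markers, 3 of 7 measured, were highest on day 0 at 204 and 216 and lay between 39.6 and 153 on all other arrays. Summed leukocyte markers, 2 of 6 measured, were 112 and 114 on day 4 and 39.4 and 36.4 on day 20. Each sum took the brightest probe of every listed gene on the array, detected or not. Genes detected on no array, 4 for fibroblasts and 3 for leukocytes, were thus included, and part of these low sums is signal near background. The part of these markers in the results was not tested.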

How the data were processed

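Illumina mouse bead arrays, 12 in all, measured RNA. For every probe the deposited signal table held a linear intensity and a detection p-value, per the file headers. Of the software, array version and genome build, the sources used here give none. The authors' value table held intensity values that the numbers showed to be straight-line transforms of the signal columns, each with mean 280.64 and medians between 6.26 and 8.71, so its scale and direction were settled. For days 4, 12 and 20 its set numbers are exchanged, and those of the signal table were used.

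Background was estimated from the detection p-values with the neqc method of limma 3.58.1 in R 4.3.3 (offset 16), followed by quantile normalization and log2. A detection p under 0.05 on 2 or more arrays kept 22978 probes. The platform annotation named 1 gene for 34885 probes, several for 18 and none for 10378. RefSeq listed 34807 of the named probes, with 0 symbols updated. The brightest detected probe stood for each of 11470 genes, 4889 of which had more than 1. Probes that no array of a day detected have bounds, worded as at least N-fold, set against the lowest detected signal per array.

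Day was fitted as a factor over all arrays with lmFit and eBayes (intensity trend), and pigmentation as a 2-group model. P-values were two-sided and adjusted by Benjamini-Hochberg within a comparison at 0.05. The number of arrays limits the precision. The sets are cycles in the design text, so their numbers pair the arrays by label. Deviations of same-set arrays from day means correlated weakly, between −0.03 and 0.27 (median 0.11, 8 of 15 pairs of days over 0.1).

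All 10 genes are named in every comparison, and pathway lists by their counts, median and up to 4 of the genes past the threshold with the largest change. Members, lists and tests were chosen with earlier results of these data known. Alternatives covered background, normalization, offset, probe filter, probe choice, set, density label, the value table and each array left out. A search for a phosphatase signature in proteins was not run.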

Additional observations from a re-analysis of the deposited data

Results flagged for a closer look

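Over the 6 depigmented arrays, the level of Spry4 on set 2 of day 20 (4.48, not detected there) stood apart, with a gap to the next array of 0.693 of the whole range. Chance alone marks about 1 in 20 such groups. The step between 4 and 8 days after plating differed between the dense culture (day 20 minus day 16) and the sparse culture (day 8 minus day 4) for 7 genes, by a test added after the data had been seen. No gene passed on day 8 against day 4, so this test largely repeats day 20 against day 16 and is not separate support. The difference, dense minus sparse, was 0.99 ± 0.11 for Dusp1 (adjusted p = 1.07e-07), 1.90 ± 0.23 for Dusp5 (adjusted p = 4.54e-07), 0.36 ± 0.11 for Dusp4 (adjusted p = 0.0104) and 0.68 ± 0.28 for Etv5 (adjusted p = 0.0409). The Dusp4 value is that of its brightest probe, and its probes 2, 3 and 4 gave 1.65, 1.70 and 1.33. Etv5 was detected on no day 16 array, so its value has no measured size, and its call was lost under offset 50, no filter, the mean of probes, median centring and the authors' scaled values. The difference was −0.75 ± 0.10 for Dusp6 (adjusted p = 1.55e-06), −1.09 ± 0.11 for Ier3 (adjusted p = 2.14e-08) and −1.73 ± 0.15 for Spred1 (adjusted p = 1.83e-09). Day, protocol density and pigmentation label differ together between these cultures and cannot be told apart. The separate density label is the same for both cultures at each time after plating.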

How the results depend on the processing

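Of 1190 values recomputed under alternatives other than leaving out an array, 1148 kept their direction and side of the threshold, 30 lost it, 10 gained it and 2 changed sign. The 2 were Dusp6 on day 12 against day 0 with the mean of its probes (0.25, adjusted p = 0.0087) and Ier3 on day 20 against day 8 with median centring (−0.33, adjusted p = 0.0547). With only probes detected on all 12 arrays, fewer genes could be tested, and 4 were called on day 4, 3 on day 8 and 5 on day 20 against day 0 and 1 for pigmented against depigmented. Under that filter 8 probes of these genes, against 13, changed over the 6 days, and 10 neighbouring pairs of days, against 22, did not pass. Median centring gave 2 calls on day 16 against day 12, and over all genes 2834, against 4638. Pigmented against depigmented gave 1 call with no filter and 1 with the set as a block, by the set numbers of either table. The block changed no other call than those given for Dusp1, Dusp5 and Spry4. Leaving out each array in turn gave 5 to 6 calls on days 4, 8, 12 and 16 against day 0, 7 to 8 on day 20 against day 0 and against day 16, and 4 to 5 on day 16 against day 4. It gave 0 on day 8 against day 4, 5 on day 12 against day 8 and on day 16 against day 12, and 6 on day 20 against day 8. The range was 7 to 8 over the 6 days, 1 to 3 for pigmented against depigmented, 5 to 7 for the difference between steps, 13 to 14 for probes and 21 to 24 for neighbouring days. Weak probes (Spry4, Etv5, Dusp5, Etv4, Spry2) limit what signal over background can show.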
